A study of Arabidopsis thaliana with 18 samples.

Results

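The genes described here are 7 members of the Arabidopsis NAC family of transcription factors, taken from the count table by their locus identifiers, out of 33602 loci in all and 113 NAC genes. They are *ANAC019* (AT1G52890), *ANAC055* (AT3G15500) and *ANAC072* (AT4G27410, also called *RD26*), called the trio below, and the 4 genes of the ATAF clade, *ATAF1* (AT1G01720), *ANAC032* (AT1G77450), *ATAF2* (AT5G08790) and *ANAC102* (AT5G63790). RNA came from whole leaf tissue of *fc2* (*fc2-1*), *fc2 pub4* (*fc2-1 pub4-6*) and wild type Col-0 (wt) plants. In cycling light, plants had 17 days of constant light and then 2 days of 16 h light and 8 h dark, and in 24 h light they had 19 days of constant light. All were harvested on day 19, at the same time after subjective dawn. These days are those of the sample labels, and the study's methods give a younger age. Each of the 6 groups had 3 replicates of 3 pooled plants. The *fc2-1* allele is a T-DNA insertion in *FC2*, which encodes a plastid ferrochelatase, and *pub4-6* is a point mutation in *PUB4*, which encodes a U-box E3 ubiquitin ligase. Each mutant was 1 line, and a *pub4* single mutant was not analysed here, so *fc2 pub4* differs from *fc2* by *pub4-6* and from wt by both alleles.

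NAC proteins are plant-specific factors that bind DNA as dimers through a conserved N-terminal domain and regulate genes through a variable C-terminal region. The trio is known to respond to abscisic acid, drought and jasmonate, with MYC2 as an upstream regulator, and to act on genes of chlorophyll breakdown and salicylic acid metabolism. The ATAF clade is known from wounding, carbon starvation, senescence and defense. ATAF1 activates the senescence regulator *ORE1* and represses the chloroplast regulator *GLK1*. ANAC032 and ANAC102 act in a detoxification pathway under the GRAS protein SCL14 and its TGA partners, and ANAC102 was described in the response to β-cyclocitral, a product of carotenoid oxidation by singlet oxygen. In cycling light, *fc2* chloroplasts are known to accumulate protoporphyrin IX and to produce singlet oxygen. The comparisons below ask how these regulators differed under that stress and with the *pub4* mutation.

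In RefSeq TAIR10.1, *ANAC019* lies at chr1:19696923-19698482 (minus strand, 3 exons), *ANAC055* at chr3:5234457-5236196 (plus strand, 3 exons) and *ANAC072* at chr4:13707192-13709170 (minus strand, 2 exons). *ATAF1* lies at chr1:267993-269819 (plus strand, 3 exons), *ANAC032* at chr1:29099839-29101759 (plus strand, 3 exons), *ATAF2* at chr5:2858849-2860558 (minus strand, 3 exons) and *ANAC102* at chr5:25526509-25528281 (minus strand, 3 exons). The regions just upstream of 4 of the genes are shown because they hold different binding cores for the factors named above, also between close relatives. Each is the 300 bases before the annotated start, read on the gene's strand from the same build. Capitals mark the ABRE core ACGTG (bound by bZIP factors of the abscisic acid pathway), the G-box CACGTG (bound by bZIP factors and by MYC2), the W-box core TTGAC (bound by WRKY factors) and the TGA factor core TGACG, each searched on both strands. The G-box contains the ABRE core on either strand. The intervals are chr1:19698483-19698782 on the minus strand for *ANAC019*, chr3:5234157-5234456 on the plus strand for *ANAC055*, chr1:29099539-29099838 on the plus strand for *ANAC032*, and chr5:25528282-25528581 on the minus strand for *ANAC102*.
ANAC019: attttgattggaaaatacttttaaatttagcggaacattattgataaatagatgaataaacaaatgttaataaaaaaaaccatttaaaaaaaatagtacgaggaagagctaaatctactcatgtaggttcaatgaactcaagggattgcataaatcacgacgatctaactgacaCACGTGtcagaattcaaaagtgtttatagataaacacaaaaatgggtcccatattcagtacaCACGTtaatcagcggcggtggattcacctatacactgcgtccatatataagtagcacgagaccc
ANAC055: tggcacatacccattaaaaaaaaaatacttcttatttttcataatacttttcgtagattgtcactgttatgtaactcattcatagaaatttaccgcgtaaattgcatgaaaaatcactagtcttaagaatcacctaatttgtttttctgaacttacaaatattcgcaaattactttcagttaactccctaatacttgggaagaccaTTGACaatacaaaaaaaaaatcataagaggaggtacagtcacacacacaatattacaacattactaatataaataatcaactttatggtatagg
ANAC032: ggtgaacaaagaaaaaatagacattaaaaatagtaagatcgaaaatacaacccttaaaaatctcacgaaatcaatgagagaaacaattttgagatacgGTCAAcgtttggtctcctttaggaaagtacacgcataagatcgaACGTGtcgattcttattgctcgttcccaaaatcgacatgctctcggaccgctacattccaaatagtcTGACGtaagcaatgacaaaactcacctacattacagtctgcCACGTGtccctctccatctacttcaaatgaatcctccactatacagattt
ANAC102: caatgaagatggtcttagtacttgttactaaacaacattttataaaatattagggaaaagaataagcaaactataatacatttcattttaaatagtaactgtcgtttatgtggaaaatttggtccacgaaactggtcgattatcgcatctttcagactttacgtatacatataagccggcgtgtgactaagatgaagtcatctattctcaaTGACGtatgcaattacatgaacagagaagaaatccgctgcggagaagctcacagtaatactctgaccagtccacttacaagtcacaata
The *ANAC019* region held a G-box starting 126 bases upstream and a further ABRE core 64 bases upstream. The *ANAC055* region held neither, although the proteins are 76.1% identical over their aligned length and 95% over the first 160 residues. *ANAC032* had a G-box 50 bases upstream and a TGA core 91 bases upstream, and *ANAC102* had a TGA core 89 bases upstream. Over the 7 genes, 3 regions held the ABRE core, 2 the G-box, 4 the W-box core and 2 the TGA core, against 25.6%, 7.09%, 50.4% and 21.3% of the same windows of 27443 genes. The NAC recognition core CATGTG, searched on both strands, was in 0 of the 7 regions and in 13.1% of all. These matches describe the letters of the windows, and binding was not measured.

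The libraries held 26994499 to 39382316 counted reads. CPM here are counts scaled to library size with TMM factors over all 18 libraries. *FC2* (AT2G30390) checked the genotype labels. It had 50.2 ± 5.16 CPM in *fc2* and 60.7 ± 7.12 CPM in *fc2 pub4* against 167 ± 7.96 CPM in wt in cycling light, and 31.9 ± 2.39 and 55.3 ± 3.29 CPM against 152 ± 21.5 CPM in wt in 24 h light (SD, n = 3 each). A point mutation such as *pub4-6* leaves the *PUB4* count uninformative about the label. All 5 leaf markers were present in each group, with summed levels of 10849 to 14264 CPM in *fc2* in cycling light and 20824 to 33859.6 CPM over the other groups. The sum of 8 flower markers was 19.6 to 45.2 CPM in *fc2* and 4.41 to 8.54 CPM in wt in 24 h light and 10.7 to 28.9 CPM in *fc2* and 8.50 to 23.4 CPM in wt in cycling light. Of 4 root markers 2 or 3 had reads in each group, and nearly all of their sum was *PYK10* and *SHR*, while *IRT1* was at or near 0 and *RSL4* at 0.

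Levels divided by exon length, as CPM per kb, put *ATAF2* and *ANAC102* at the top in 24 h light, at 23.4 ± 1.76 and 19.2 ± 0.750 CPM per kb in *fc2* and 21.7 ± 3.94 and 15.3 ± 1.29 CPM per kb in wt (SD, n = 3 each). *ATAF1* and *ANAC072* followed, and *ANAC055* was lowest in every group. In cycling light the order of the levels differed between genotypes. In *fc2*, *ANAC102* and *ATAF2* had 69.3 ± 15 and 68.6 ± 15.1 CPM per kb, *ATAF1* had 52.4 ± 10.1 and *ANAC019* had 45.4 ± 22.6, with libraries that overlapped between each neighbouring pair in that order. In *fc2 pub4* the highest was *ANAC102*, at 32.5 ± 1.04 CPM per kb, and its libraries were all above those of *ATAF1*, at 27.3 ± 1.65. In wt the highest was *ATAF1*, at 23.4 ± 2.61 CPM per kb, with libraries all above those of *ANAC102*, at 17.9 ± 1.42.

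**Figure D1:**
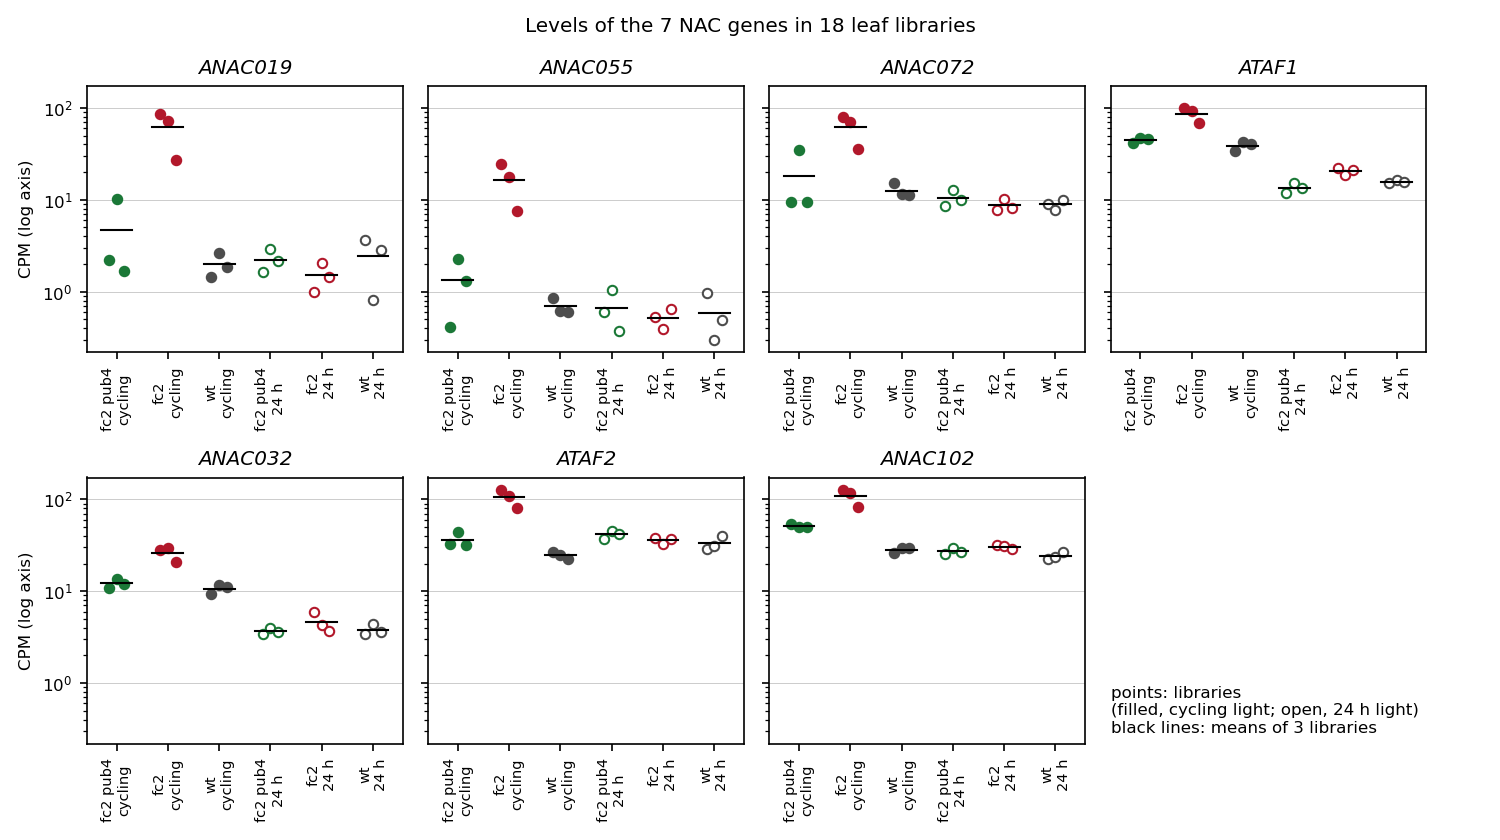
CPM (log axis) of each of the 7 genes in the 18 libraries, by genotype and light condition, with filled points for cycling light, open points for 24 h light and black lines for the means of 3 libraries. The 3 *fc2* libraries in cycling light are above all other libraries for 7 of 7 genes, by the smallest margin for *ANAC072*, where 1 *fc2 pub4* library has 35.1 CPM and the lowest *fc2* library 35.3 CPM. The share of all genes with such a separation was not counted.

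In cycling light all 7 genes were higher in *fc2* than in wt. *ANAC019* and *ANAC055*, which were at or below 2.66 CPM in each wt library in this light, rose 31.6-fold and 24.0-fold. *ANAC072*, *ATAF2* and *ANAC102* rose 4.92-fold, 4.28-fold and 3.90-fold, and *ANAC032* and *ATAF1* rose 2.45-fold and 2.26-fold. Each was called at an adjusted p under 0.01 (edgeR quasi-likelihood test, two-sided, Benjamini-Hochberg over 20122 genes), where 21.8% of all genes tested were called higher. The median log2 fold change (log2FC) of the 7 was 2.1, against -0.00 for all genes tested.

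*ANAC019* had 86.5, 71.5 and 27.4 CPM in *fc2* and 1.44, 2.66 and 1.87 CPM in wt in cycling light. The lowest *fc2* library was above every wt library, although the *fc2* libraries differed among themselves. The log2FC was 4.98 ± 0.46 (SE, n = 3 each, adjusted p = 2.7e-05). *ANAC055* had 24.2, 17.7 and 7.57 CPM in *fc2* and 0.850, 0.622 and 0.605 CPM in wt, where it was counted on 15 to 23 reads a library. The groups did not overlap, and the log2FC was 4.59 ± 0.47 (adjusted p = 4.61e-05). *ANAC072*, whose product RD26 is an activator of dehydration-responsive genes, was the member of the trio with the highest level in wt. It had 79.4, 69.8 and 35.3 CPM in *fc2* against 15.2, 11.4 and 11.2 CPM in wt, again without overlap, with a log2FC of 2.30 ± 0.28 (adjusted p = 0.000117).

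*ATAF2*, a regulator of defense and brassinosteroid catabolism genes, had 125, 109.9 and 79.7 CPM in *fc2* against 26.9, 24.9 and 22.4 CPM in wt in cycling light (log2FC 2.1 ± 0.15, adjusted p = 9.23e-06). *ANAC102*, with 86.6% identical residues in its protein, had 128, 119 and 83.0 CPM in *fc2* against 25.8, 29.8 and 29.5 CPM in wt (log2FC 1.96 ± 0.15, adjusted p = 1.03e-05). Every *fc2* library of these genes was above every wt library. *ATAF1* had 99.3, 93.1 and 67.7 CPM in *fc2* against 33.8, 42.1 and 40.0 CPM in wt (log2FC 1.18 ± 0.14, adjusted p = 0.000101). *ANAC032*, whose protein is 72.2% identical to ATAF1, had 28.0, 29.3 and 20.6 CPM in *fc2* against 9.31, 11.6 and 11.1 CPM in wt (log2FC 1.29 ± 0.14, adjusted p = 7.04e-05). No library of either gene overlapped between the genotypes. The summed leaf markers were lower in *fc2*, at 10849 to 14264 CPM against 31271 to 33367 CPM in wt. The summed root markers were higher in *fc2*, at 86.4 to 119 CPM against 52.5 to 56.1 CPM in wt. The part of these markers in the result was not tested. In whole leaves, more RNA per cell and more cells with the RNA cannot be told apart.

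**Figure D2:**
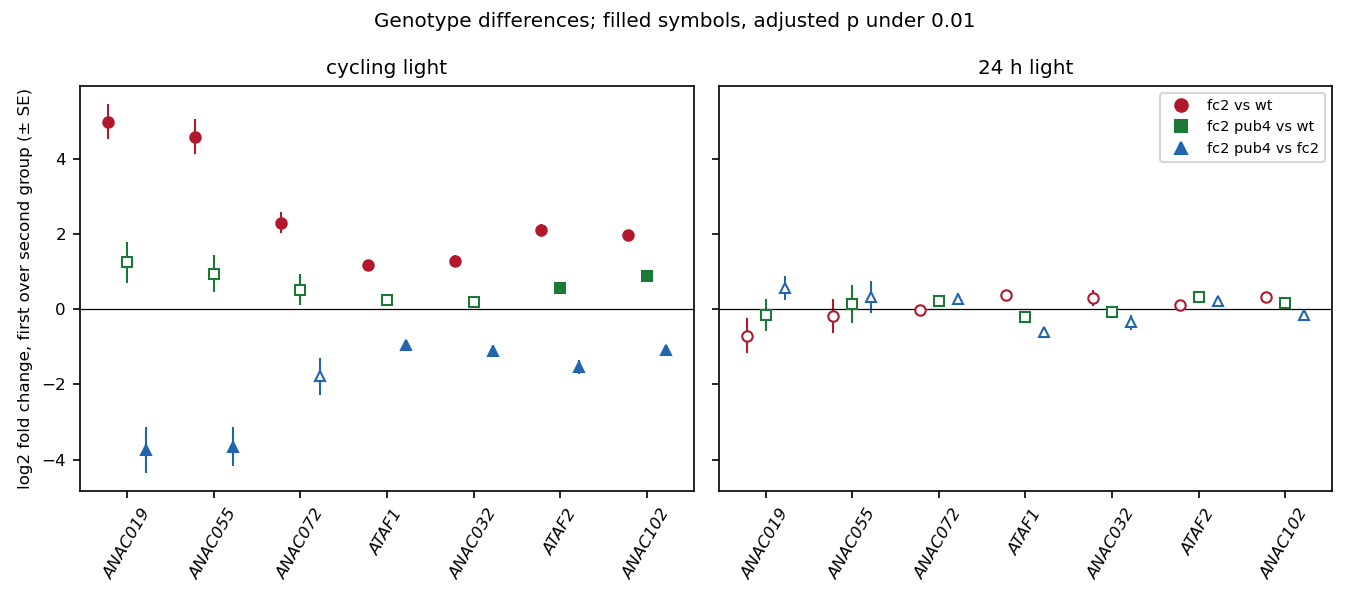
log2 fold changes (± SE) of the 7 genes between genotypes in cycling light (left) and 24 h light (right), for *fc2* against wt (circles), *fc2 pub4* against wt (squares) and *fc2 pub4* against *fc2* (triangles), filled where the adjusted p was under 0.01. In cycling light *fc2* against wt runs from 1.18 to 4.98 and *fc2 pub4* against *fc2* from -3.74 to -0.95, while no symbol is filled in 24 h light.

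In the same light, 6 of the 7 genes were lower when *fc2 pub4* was set against *fc2*, where 19% of 20116 genes were called lower and 17.4% higher, and the median log2FC of the 7 was -1.54, against 0.01 for all genes tested. *ANAC019* had 2.20, 10.2 and 1.67 CPM in *fc2 pub4* against 86.5, 71.5 and 27.4 CPM in *fc2*, with a log2FC of -3.74 ± 0.61 (adjusted p = 0.000806). *ANAC055* had 0.412, 2.26 and 1.31 CPM in *fc2 pub4* against 24.2, 17.7 and 7.57 CPM in *fc2*, with a log2FC of -3.66 ± 0.53 (adjusted p = 0.000385). For both genes the highest *fc2 pub4* library was below the lowest *fc2* library. *ATAF2* fell to 32.4, 44.6 and 32.1 CPM in *fc2 pub4*, against 125, 109.9 and 79.7 CPM in *fc2* (log2FC -1.54 ± 0.17, adjusted p = 9.91e-05). *ANAC032* had 10.7, 13.7 and 12.1 CPM in *fc2 pub4* against 28.0, 29.3 and 20.6 CPM in *fc2* (log2FC -1.10 ± 0.14, adjusted p = 0.000222), and *ATAF1* had 41.9, 47.1 and 46.1 CPM against 99.3, 93.1 and 67.7 CPM (log2FC -0.95 ± 0.13, adjusted p = 0.000265). These 3 genes did not overlap between the genotypes either. *ANAC102* had 53.5, 50.7 and 50.5 CPM in *fc2 pub4* against 128, 119 and 83.0 CPM in *fc2* (log2FC -1.10 ± 0.14, adjusted p = 0.000175), with no overlap. The leaf marker sums were 28172 to 28893 CPM in *fc2 pub4* and 10849 to 14264 CPM in *fc2*, and the root marker sums overlapped, at 101 to 141 and 86.4 to 119 CPM. The flower marker sums were 3.52 to 8.73 CPM in *fc2 pub4* and 10.7 to 28.9 CPM in *fc2*, without overlap. The part of these markers in the result was not tested.

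*ANAC072* did not pass the test between *fc2 pub4* and *fc2* in cycling light, and this depended on single libraries and on the settings. It had 9.36, 35.1 and 9.39 CPM in *fc2 pub4* against 79.4, 69.8 and 35.3 CPM in *fc2* (log2FC -1.79 ± 0.49, adjusted p = 0.0127). Without *fc2 pub4* replicate 2 the log2FC was -2.72 (adjusted p = 0.000378), and without *fc2* replicate 3 it was -2.08 (adjusted p = 0.0024). It also passed when genes were not filtered on low counts (adjusted p = 0.00503), with library size alone as the scale (adjusted p = 0.00888) with all 18 libraries in the fit (adjusted p = 0.000518) and with the replicate block (adjusted p = 0.000682), but not with DESeq2.

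Against wt in cycling light, 2 of the 7 genes were called higher in *fc2 pub4*, *ANAC102* and *ATAF2*, where 6.32% of 19658 genes were called higher and 8.02% lower. *ANAC102* had 51.6 ± 1.65 CPM in *fc2 pub4* and 28.4 ± 2.26 CPM in wt (SD, n = 3 each), a log2FC of 0.87 ± 0.07 (adjusted p = 3.65e-06). Its libraries in cycling light were thus highest in *fc2*, intermediate in *fc2 pub4* and lowest in wt, with no overlap. *ATAF2* had 36.4 ± 7.11 CPM in *fc2 pub4* and 24.7 ± 2.29 CPM in wt (log2FC 0.57 ± 0.12, adjusted p = 0.00404). The call on *ATAF2* was lost without wt replicate 2 (log2FC 0.57, adjusted p = 0.0198), without wt replicate 3 (log2FC 0.50, adjusted p = 0.0205) and with all 18 libraries in the fit (adjusted p = 0.0205). *ATAF1* and *ANAC032* had log2FC of 0.23 ± 0.08 (adjusted p = 0.0549) and 0.20 ± 0.12 (adjusted p = 0.263), and their libraries overlapped between *fc2 pub4* and wt. For the trio the log2FC were 1.25 ± 0.55, 0.94 ± 0.49 and 0.52 ± 0.40 for *ANAC019*, *ANAC055* and *ANAC072*, and none passed. Without *fc2 pub4* replicate 2 the log2FC of *ANAC019* was -0.020 and that of *ANAC072* was -0.42 (adjusted p = 0.0364), so the direction of both rested on that library.

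In 24 h light 0 of the 7 genes were called in any of the genotype comparisons by edgeR. In either direction, 0.315% of 19664 genes were called between *fc2* and wt, 0.763% of 19782 between *fc2 pub4* and wt and 1.49% of 19851 between *fc2 pub4* and *fc2*. At an unadjusted p under 0.05 there were 2, 1 and 2 of the 7 genes in these comparisons, and 2992, 4120 and 4418 of all genes tested. DESeq2 called 0, 0 and 1 of the 7, and 513, 882 and 1085 of all genes. *ATAF1* had 21.9, 18.5 and 21.1 CPM in *fc2* against 15.2, 16.4 and 15.5 CPM in wt, groups that did not overlap, with a log2FC of 0.38 ± 0.09 (adjusted p = 0.056). *ANAC102* had 31.5, 30.7 and 29.2 CPM in *fc2* against 22.6, 23.5 and 26.5 CPM in wt, also without overlap (log2FC 0.33 ± 0.08, adjusted p = 0.0692). Between *fc2 pub4* and *fc2*, *ATAF1* had 11.9, 15.4 and 13.5 CPM against 21.9, 18.5 and 21.1 CPM, and its log2FC was -0.60 ± 0.11 (adjusted p = 0.0138). It passed with DESeq2 (adjusted p = 0.000153), with no filter (adjusted p = 0.00467), with all 18 libraries in the fit (adjusted p = 0.00912) and without *fc2 pub4* replicate 2 (log2FC -0.69, adjusted p = 0.00939). The summed root markers were 81.7 to 119 CPM in *fc2 pub4* and 40.0 to 46.2 CPM in *fc2* in this light, without overlap, and 48.1 to 65.6 CPM in wt. The leaf marker sums were 20824 to 23514 CPM in *fc2 pub4* and 25812 to 29001 CPM in *fc2*. The flower marker sums were 7.29 to 9.47 CPM in *fc2 pub4* and 19.6 to 45.2 CPM in *fc2*, and neither list overlapped. The part of these markers in the result was not tested. *ANAC019* had 1.64 to 2.89 CPM in *fc2 pub4*, 1.00 to 2.07 CPM in *fc2* and 0.816 to 3.66 CPM in wt. *ANAC055* had 0.297 to 1.03 CPM in these 9 libraries, on 8 to 34 reads each, so small differences were not detectable for it at this depth.

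Within each genotype, cycling light was set against 24 h light. In *fc2* all 7 genes were higher in cycling light, where 22.7% of 20168 genes were called higher. The log2FC were 5.35 ± 0.47 for *ANAC019*, 4.94 ± 0.47 for *ANAC055*, 2.80 ± 0.27 for *ANAC072*, 2.45 ± 0.20 for *ANAC032*, 2.06 ± 0.14 for *ATAF1*, 1.83 ± 0.14 for *ANAC102* and 1.53 ± 0.15 for *ATAF2*, with adjusted p of at most 2.89e-05. In *fc2 pub4*, 3 genes were called higher, where 20.7% of 19839 genes were. They were *ATAF1* (45.0 ± 2.73 CPM in cycling light and 13.6 ± 1.77 CPM in 24 h light, log2FC 1.74 ± 0.10), *ANAC032* (12.2 ± 1.47 and 3.67 ± 0.266 CPM, log2FC 1.74 ± 0.13) and *ANAC102* (51.6 ± 1.65 and 27.4 ± 2.06 CPM, log2FC 0.92 ± 0.07). In wt, 2 genes were called higher, where 19.2% of 19600 genes were. These were *ATAF1* (38.6 ± 4.31 CPM in cycling light and 15.7 ± 0.641 CPM in 24 h light, log2FC 1.3 ± 0.09, adjusted p = 1.14e-06) and *ANAC032* (10.7 ± 1.21 and 3.81 ± 0.493 CPM, log2FC 1.49 ± 0.14, adjusted p = 1.26e-05). *ATAF1* and *ANAC032* were therefore called higher in cycling light in each of the 3 genotypes. In *fc2* the leaf marker sums were 10849 to 14264 CPM in cycling light and 25812 to 29001 CPM in 24 h light. The root marker sums there were 86.4 to 119 and 40.0 to 46.2 CPM, and neither list overlapped. In *fc2 pub4* the leaf marker sums, 28172 to 28893 and 20824 to 23514 CPM, did not overlap, and the root sums did. In wt the leaf and root sums overlapped, as did the flower sums in each genotype. The part of these markers in the result was not tested.

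*ATAF2* had a negative log2FC for light in wt and in *fc2 pub4*. In wt it had 26.9, 24.9 and 22.4 CPM in cycling light against 28.8, 30.8 and 40.1 CPM in 24 h light, groups that did not overlap (log2FC -0.43 ± 0.12, adjusted p = 0.0152). It passed with DESeq2 (adjusted p = 0.00245), with no filter (adjusted p = 0.00648), with library size alone as the scale (adjusted p = 0.00174) and without 24 h replicate 1 (adjusted p = 0.00414). In *fc2 pub4* the log2FC was -0.18 ± 0.12 (adjusted p = 0.239), and -0.36 (adjusted p = 0.0059) without cycling replicate 2. *ANAC072* had 15.2, 11.4 and 11.2 CPM in wt in cycling light against 8.97, 7.79 and 9.92 CPM in 24 h light (log2FC 0.50 ± 0.14, adjusted p = 0.015), and passed with DESeq2 (adjusted p = 0.00466) and with no filter (adjusted p = 0.0087). *ANAC019* and *ANAC055* had log2FC of -0.31 ± 0.44 and 0.21 ± 0.44 in wt, and both signs changed when 1 library was left out (0.094 without 24 h replicate 1 and -0.097 without 24 h replicate 2). In *fc2 pub4* the log2FC were 1.08 ± 0.57 for *ANAC019*, 1.01 ± 0.55 for *ANAC055* and 0.79 ± 0.44 for *ANAC072*, and none passed. Without cycling replicate 2 they were -0.19 for *ANAC019* and -0.15 for *ANAC072*.

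**Figure D3:**
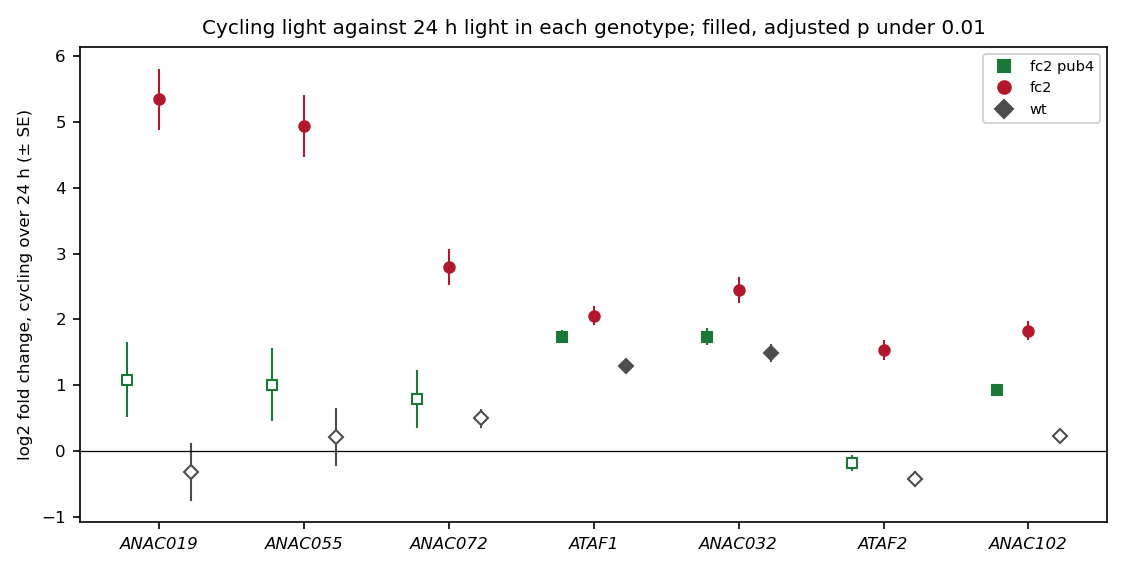
log2 fold changes (± SE) of cycling light over 24 h light for each of the 7 genes in *fc2 pub4* (squares), *fc2* (circles) and wt (diamonds), filled where the adjusted p was under 0.01. *ATAF1* and *ANAC032* are filled in each genotype, *ANAC102* in *fc2 pub4* (0.92) and *fc2* (1.83), and the other 4 genes in *fc2* alone.

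The difference between genotypes in the light response was tested as an interaction term over 12 libraries, on the log2 scale. The response of *fc2* exceeded that of wt for 7 of 7 genes, where 15.3% of 20411 genes had a higher term. The term was 5.70 ± 0.74 for *ANAC019*, 4.76 ± 0.76 for *ANAC055* and 0.78 ± 0.18 for *ATAF1* (adjusted p = 0.0031). *ANAC032* had a term of 0.98 ± 0.26 (adjusted p = 0.00661), and it lost the call in 8 of the 12 fits that left out 1 library (wt or *fc2*, either light), with terms of 0.83 to 1.21 over the 12 and adjusted p up to 0.024. Between *fc2 pub4* and *fc2* the term was lower for *ANAC019* (-4.29 ± 0.87), *ANAC055* (-3.96 ± 0.83), *ATAF2* (-1.73 ± 0.22) and *ANAC102* (-0.92 ± 0.17), where 14.2% of 20541 genes were lower. *ANAC055* lost its call without *fc2 pub4* 24 h replicate 2 (-3.51, adjusted p = 0.0109). For *ANAC072* the term was -2.03 ± 0.60 (adjusted p = 0.0148), for *ANAC032* -0.73 ± 0.25 (adjusted p = 0.0286) and for *ATAF1* -0.34 ± 0.18 (adjusted p = 0.164). All 7 passed without *fc2* cycling replicate 3, where *ATAF1* had -0.49 (adjusted p = 0.00987), *ANAC032* -0.87 (adjusted p = 0.00565) and *ANAC072* -2.31 (adjusted p = 0.0044). *ANAC072* also passed without *fc2 pub4* cycling replicate 2 (-2.96, adjusted p = 6.46e-05), and *ANAC032* without *fc2* 24 h replicate 1 (-0.96, adjusted p = 0.00424). With library size alone as the scale both passed (adjusted p = 0.00738 and 0.00464). *ANAC072* passed too with no filter (adjusted p = 0.00494), all 18 libraries (adjusted p = 0.00515) and the replicate block (adjusted p = 0.0029). Neither passed with DESeq2, its size factors or at least 10 counts in every library. Between *fc2 pub4* and wt 1 gene was called, *ANAC102*, at 0.71 ± 0.11 (adjusted p = 0.00799), where 0.124% of 20185 genes were higher. This call was lost in 9 of 12 fits that left out 1 library (terms of 0.63 to 0.76 over the 12, adjusted p up to 0.0322) and with all 18 libraries in the fit (0.69, adjusted p = 0.0525).

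The libraries within a group moved together in some groups. In *fc2* in cycling light replicate 3 was the lowest of 3 for 7 of 7 genes, and in *fc2 pub4* in cycling light replicate 2 was the highest for 6 of 7. The shares of all genes with the same lowest or highest library were not counted, so these counts are not particular to the 7 genes. Compared with the mean of the other libraries of its group, *fc2* replicate 3 had 0.347 times the level of *ANAC019* and 0.717 times that of *ANAC032*. *fc2 pub4* replicate 2 had 5.25 times the level of *ANAC019*, 3.75 times that of *ANAC072* and 0.975 times that of *ANAC102*. The leaf marker sum of *fc2* replicate 3 was 14264 CPM and that of the other *fc2* libraries 10849 and 10993 CPM. Its flower marker sum was 28.9 CPM against 13.7 and 10.7 CPM, and its root marker sum, 102 CPM, lay between theirs, 86.4 and 119 CPM. In *fc2 pub4* replicate 2 the leaf marker sum, 28543 CPM, lay between those of the other libraries of its group. Its root marker sum was 141 CPM, against 103 and 101 CPM in the others, and its flower marker sum 3.52 CPM, against 7.85 and 8.73 CPM. The part of these markers in the result was not tested. Replicate 2 was also the highest of *fc2 pub4* in 24 h light for 7 of 7 genes.

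**Figure D4:**
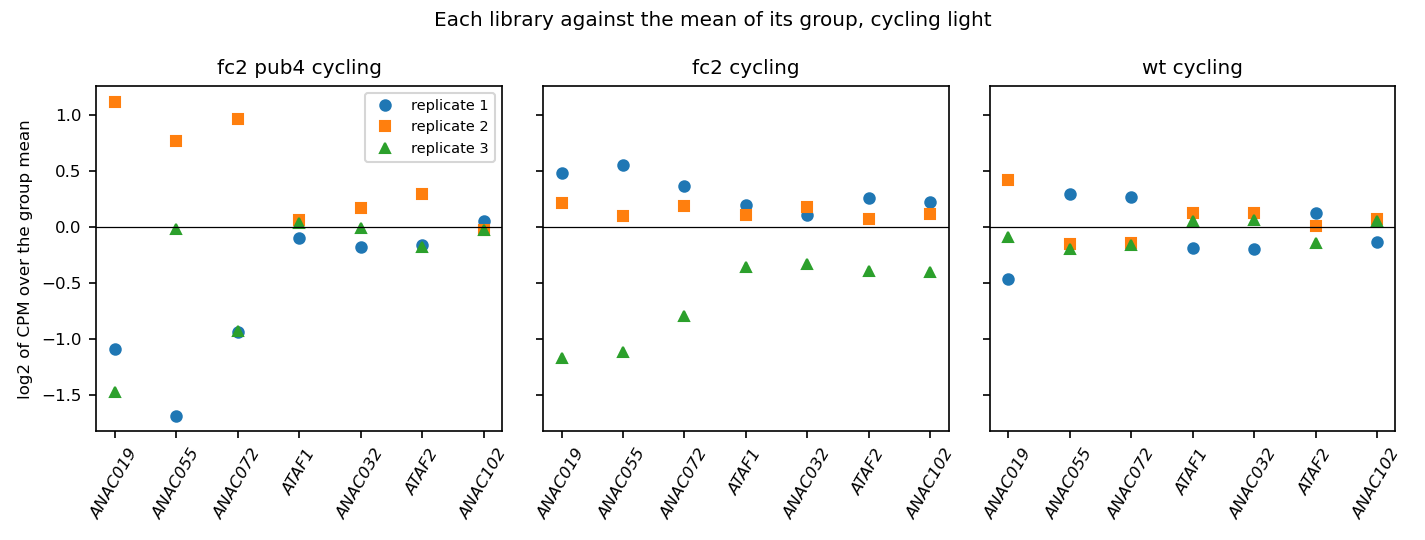
log2 of the CPM of each library over the mean of its group, for the 7 genes in *fc2 pub4*, *fc2* and wt in cycling light, with a symbol for each replicate number. Replicate 3 of *fc2* is below the other libraries for 7 of 7 genes and replicate 2 of *fc2 pub4* is above for 6 of 7, with the widest spread in *ANAC019*, *ANAC055* and *ANAC072*. The shares of all genes with the same lowest or highest library were not counted.

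Over the 18 libraries, the log2 CPM of *ATAF1* and *ANAC032* had a Pearson r of 0.988, the highest among pairs of the 7 genes. The trio had an r of 0.945 to 0.956 among its members, *ATAF2* and *ANAC102* had 0.845, and *ATAF1* and *ATAF2* had 0.559. These values describe 18 points that fall into 6 groups and share their library depth and composition. Of 20630 genes, the one most like *ANAC019* was *ACS2* (AT1G01480, r = 0.976), an ACC synthase of ethylene biosynthesis, and the one most like *ANAC055* was AT4G33150 (r = 0.977), annotated as the bifunctional enzyme of lysine breakdown. *ANAC072* was most like *NRT1.8* (AT4G21680, r = 0.970), a nitrate transporter, and *ATAF1* most like *GPX2* (AT2G31570, r = 0.990), a glutathione peroxidase. *ATAF2* was most like *UGT85A1* (AT1G22400, r = 0.984), a glycosyltransferase, and *ANAC102* most like *IVD* (AT3G45300, r = 0.984), a dehydrogenase of branched-chain amino acid breakdown. *ANAC032* was most like *ATAF1* itself. The mean of the 7 genes was most like *SBT3.5*, a subtilase, *Rap2.6L*, an ERF factor, AT1G26930, *SAG13*, a senescence marker, and AT2G41380, with r of 0.983 to 0.990.

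Set among the family, *ANAC019* and *ANAC055* had the highest log2FC of the 74 NAC genes tested between *fc2* and wt in cycling light, and *ANAC072*, *ATAF2*, *ANAC102*, *ANAC032* and *ATAF1* were at ranks 9, 11, 13, 21 and 23. Of the other 106 NAC genes 67 were tested, 23 were higher and 8 lower, where 21.8% of all genes were called higher and 21% lower, and their median log2FC was 0.20. Those with the largest increases among the called genes were *NAC047* (22.4 ± 8.76 CPM in *fc2* and 1.45 ± 0.361 CPM in wt, log2FC 3.98), *ANAC087*, known from programmed cell death in the root cap (30.5 ± 6.52 and 3.06 ± 0.273 CPM, log2FC 3.33), and the senescence regulator *ORE1* (AT5G39610, listed as NAC6, 9.89 ± 4.26 and 1.18 ± 0.328 CPM, log2FC 3.08). The largest decreases were in *NAC088* (log2FC -1.68), *NAC101* (*VND6*, a xylem vessel regulator, log2FC -1.63) and *NAC097* (log2FC -1.31). In *fc2 pub4* against *fc2*, 6 of 68 other NAC genes were higher and 21 lower, where 17.4% of all genes were called higher and 19% lower, with log2FC of -3.07 for *NAC047*, -2.82 for *ANAC087* and -2.55 for *ORE1* (NAC6).

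**Figure D5:**
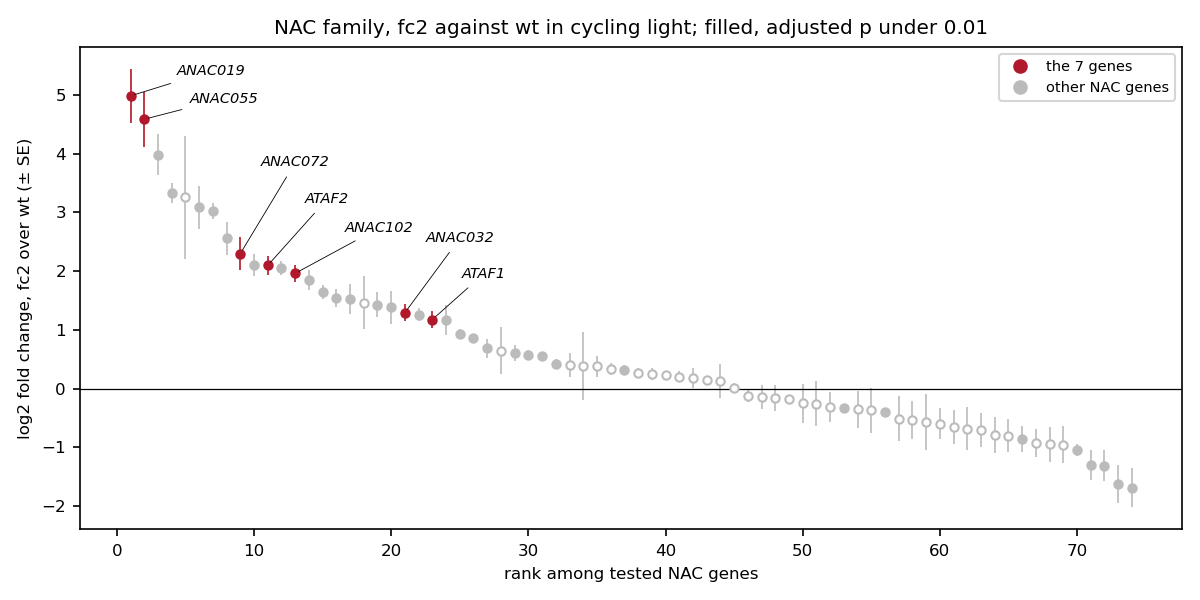
log2 fold change (± SE) of *fc2* over wt in cycling light for the 74 NAC genes tested, in order of rank, with the 7 genes in red and the others in grey, filled where the adjusted p was under 0.01. The red points lie between ranks 1 and 23, with *ANAC019* (4.98) and *ANAC055* (4.59) first.

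Of 15 genes known to act upstream of these factors or with them, all tested, 6 were higher and 2 lower in *fc2* than in wt in cycling light, where 21.8% of all genes were called higher and 21% lower, and their median log2FC was 0.27. *MYC2*, which acts above the trio in jasmonate signaling, had 153 ± 16.7 CPM in *fc2* and 109 ± 10.6 CPM in wt (log2FC 0.49 ± 0.09, adjusted p = 0.0018), and its relative *MYC4* had 88.4 ± 9.24 CPM in *fc2* and 129 ± 2.63 CPM in wt (log2FC -0.53 ± 0.08, adjusted p = 0.000462). Among the bZIP factors of the abscisic acid pathway, *ABF4* was higher in *fc2* (59.4 ± 6.00 CPM, against 35.5 ± 2.35 CPM in wt, log2FC 0.75 ± 0.09) and *ABF2* lower (46.8 ± 3.72 CPM, against 59.6 ± 2.50 CPM in wt, log2FC -0.34 ± 0.07). *ABI5*, counted among the 6 higher genes, had the largest log2FC of the list at a mean level under 1 CPM (0.884 ± 0.181 CPM in *fc2* and 0.241 ± 0.148 CPM in wt, log2FC 1.84 ± 0.47, adjusted p = 0.00835). Its wt libraries had 0.0739, 0.290 and 0.358 CPM, and it passed the low-count filter here through the *fc2* libraries. It did not pass that filter in *fc2 pub4* against wt in cycling light or for light in wt. *SCL14*, above *ANAC032* and *ANAC102*, had 45.8 ± 3.98 CPM in *fc2* and 38.4 ± 2.76 CPM in wt and did not pass (log2FC 0.27 ± 0.08, adjusted p = 0.019). In *fc2 pub4* against *fc2*, 2 of the 15 were higher (*MYC4* and *RHA2A*) and 2 lower (*ABF3* and *ABF4*), where 17.4% of all genes were called higher and 19% lower.

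Of 23 genes reported as targets of these factors, all tested, 17 were higher and 2 lower in *fc2* than in wt in cycling light, where 21.8% of all genes were called higher and 21% lower, with a median log2FC of 1.08, against -0.00 for all genes tested. The list mixes genes that the factors activate with genes that they repress. Like the other lists, it was chosen with earlier results of these data known, so its share of called genes is not independent of them. *NIT2*, a nitrilase gene activated by ATAF2, had 1409 ± 567 CPM in *fc2* and 29.4 ± 9.41 CPM in wt (log2FC 5.6 ± 0.37, adjusted p = 5.18e-06). *PR1*, the marker of salicylic acid signaling, had 1917 ± 329 CPM in *fc2* and 35.7 ± 8.67 CPM in wt (log2FC 5.76 ± 0.21, adjusted p = 7.87e-07). *GLK1*, which ATAF1 represses, was lower in *fc2* (195 ± 20.5 CPM, against 547 ± 9.70 CPM in wt, log2FC -1.48 ± 0.08, adjusted p = 2.47e-06), as was *CYP734A1*, a brassinosteroid-inactivating enzyme gene that ATAF2 represses (1.2 ± 0.1 CPM, against 2.97 ± 0.343 CPM in wt, log2FC -1.29 ± 0.21, adjusted p = 0.000611). The chlorophyll breakdown genes *NYE1*, *NYE2*, *NYC1* and *PAO* were higher, with log2FC of 0.58 ± 0.09, 1.97 ± 0.31, 0.73 ± 0.10 and 0.83 ± 0.10. Of the salicylic acid genes that the trio acts on, the methyltransferase gene *BSMT1* had a log2FC of 1.91 ± 0.39 and the glucosyltransferase gene *UGT74F2* one of 3.10 ± 0.32. *ICS1*, the synthesis gene that the trio represses, was also higher (96.1 ± 7.39 CPM in *fc2* and 44.3 ± 14.4 CPM in wt, log2FC 1.13 ± 0.20, adjusted p = 0.00123). *ERD1*, the protease gene whose promoter the trio binds, had 490.4 ± 90.8 CPM in *fc2* and 244 ± 10.8 CPM in wt (log2FC 1.02 ± 0.12). The 4 that did not pass were *CYP72C1*, *NIMIN1*, *PDF1.2A* and *ADH1*.

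In *fc2 pub4* against *fc2* in cycling light, 16 of the 23 targets were lower and 2 higher, where 19% of all genes were called lower and 17.4% higher, with a median log2FC of -1.04. The 2 higher ones were *GLK1* (385 ± 26.7 CPM in *fc2 pub4* and 195 ± 20.5 CPM in *fc2*, log2FC 0.97 ± 0.09) and *CYP734A1* (3.69 ± 0.728 and 1.2 ± 0.1 CPM, log2FC 1.61 ± 0.22), the genes that were lower in *fc2* than in wt. *NIT2* had 94.0 ± 37.1 CPM in *fc2 pub4* and 1409 ± 567 CPM in *fc2* (log2FC -3.91 ± 0.36), and *PR1* had 122 ± 32.4 and 1917 ± 329 CPM (log2FC -3.98 ± 0.21). Both comparisons share the *fc2* libraries. *GLK1* was also higher in cycling than in 24 h light in *fc2 pub4* (log2FC 0.86 ± 0.07, adjusted p = 3.54e-06) and in wt (log2FC 0.92 ± 0.07, adjusted p = 1.52e-06), and so was *ATAF1*. In 24 h light *GLK1* was lower in *fc2* than in wt (log2FC -0.90 ± 0.08, adjusted p = 0.0016), where *ATAF1* had a log2FC of 0.38 ± 0.09 (adjusted p = 0.056). The part of *ATAF1* in these levels of *GLK1* was not tested. Against wt, *fc2 pub4* had 3 targets higher and 2 lower in cycling light, where 6.32% of all genes were called higher and 8.02% lower. Binding of the factors to these genes was not measured.

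A part of the counts of *ATAF1*, *ATAF2* and *ANAC102* could come from genes on the other strand, since the use of strand in counting is not given in the sources used here. An annotated antisense noncoding gene, AT1G04043, covers 20.8% of the *ATAF1* exon bases and was not analysed here. Exons of coding genes on the other strand cover 10.3% of *ATAF2* and 5.36% of *ANAC102*. The partner of *ATAF2*, AT5G08780, had means of 6.07 to 7.30 CPM over the 6 groups. The partner of *ANAC102*, AT5G63780, had 18.1 CPM in *fc2* and 35.8 CPM in wt in cycling light, the opposite order to *ANAC102*, and 21.6 CPM in *fc2 pub4*. In 24 h light AT5G63780 had 56.7 CPM in wt, 53.2 CPM in *fc2* and 50.2 CPM in *fc2 pub4*. *ANAC102* had less in that light, at 24.2, 30.5 and 27.4 CPM in the same order. The part of such reads in the levels and light response of *ANAC102* was not tested. Of the 50-base stretches of the 7 genes, 0% occurred elsewhere in the genome.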

How the data were processed

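RNA from the 18 leaf samples was made into libraries with a stranded mRNA kit and sequenced with single-end reads. The deposited values are counts per locus: the authors aligned reads to TAIR10 with HISAT2 2.1.0 and used StringTie 1.3.4, and the use of strand in counting is not given in the sources used here. Counts were tested as deposited with edgeR 4.0.16 in R 4.3.3 (filterByExpr, TMM scaling, quasi-likelihood F test, two-sided), each pairwise comparison on its 6 libraries and each interaction on 12, with Benjamini-Hochberg adjustment over all genes tested and calls at an adjusted p under 0.01. The SE of a log2 fold change is its size over the square root of F. CPM used TMM factors over all 18 libraries, and likeness used log2 CPM with a prior count of 2 (alternative 0.5). Total counts per library were 26994499 to 39382316, and 0 per-sample columns were left unused.

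The members and gene lists were chosen with earlier results of these data known. All 7 members are described. Beyond them, the called genes with the highest and lowest log2 fold changes in *fc2* against wt in cycling light were named (3 of each for the NAC list, 2 of each for the upstream and target lists), with the gene most like each member and the 5 most like the mean of their z-scores, and other list genes were named after their values were seen. Alternatives were DESeq2 1.42.0, its size factors, library size alone, no filter, at least 10 counts in every library, all 18 libraries in the fit, the replicate block and leaving out each library. Replicates differed beyond counting noise, and whether p-values cover more than the spread between these pools of plants is not known. Sequences, exon lengths and protein identities came from RefSeq TAIR10.1 (Biopython 1.88), a later release than the authors' TAIR10, matched by locus for all 169 list loci.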

Additional observations from a re-analysis of the deposited data

Results flagged for a closer look

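For 12 values the light response differed between genotypes by the interaction test (edgeR quasi-likelihood, adjusted p under 0.01). Between *fc2* and wt the interaction terms, on the log2 scale, were 5.70 for *ANAC019*, 4.76 for *ANAC055*, 2.32 ± 0.35 for *ANAC072*, 0.78 for *ATAF1*, 1.98 ± 0.22 for *ATAF2*, 0.98 for *ANAC032* and 1.62 ± 0.18 for *ANAC102*. Between *fc2 pub4* and wt the term of *ANAC102* was 0.71. Between *fc2 pub4* and *fc2* the terms were -4.29 for *ANAC019*, -3.96 for *ANAC055*, -1.73 for *ATAF2* and -0.92 for *ANAC102*. The first and last sets share the *fc2* libraries.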

How the results depend on the processing

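Of the 7 genes, the number called moved by over 1.5 times in 4 comparisons under another setting of the whole fit. With all 18 libraries in the fit, 1 gene was called in cycling light for *fc2 pub4* against wt and 0 in the interaction of *fc2 pub4* and wt. Over all genes, that fit called 1988 against 2820 in the main fit for the former and 38 against 50 for the interaction. Between *fc2 pub4* and *fc2* in 24 h light, 1 was called with no filter, 1 with DESeq2 and 1 with all 18 libraries, and for light in wt 4 were called with no filter and 4 with DESeq2 (*ANAC072* and *ATAF2* in addition). Over all genes, light in wt had 6917 calls in the main fit, 7167 with no filter and 7201 with DESeq2. With library size alone, the log2FC of *ANAC032* in 24 h light for *fc2 pub4* against wt was 0.033. Leaving out each library gave 1 to 2 genes called in cycling light for *fc2 pub4* against wt, 0 to 1 between *fc2 pub4* and *fc2* in 24 h light, and 0 to 1 and 3 to 7 in the interactions of *fc2 pub4* with wt and with *fc2*. It gave both signs of log2FC in 24 h light for *ANAC055* (-0.49 to 0.41) and *ANAC072* (-0.16 to 0.054) in *fc2* against wt, for *ANAC019* (-0.57 to 0.26), *ANAC055* (-0.31 to 0.73) and *ANAC032* (-0.13 to 0.043) in *fc2 pub4* against wt, and for *ANAC055* (-0.12 to 0.63) in *fc2 pub4* against *fc2*. The same held in cycling light for *ANAC019* (-0.020 to 1.65) and *ANAC072* (-0.42 to 0.83) in *fc2 pub4* against wt. For light it held for *ANAC019* (-0.72 to 0.094) and *ANAC055* (-0.097 to 0.79) in wt and for *ANAC019* (-0.19 to 1.47) and *ANAC072* (-0.15 to 1.09) in *fc2 pub4*, and in the interaction of *fc2 pub4* and wt for *ANAC072* (-0.64 to 0.61). With at least 10 counts in every library, *ANAC055* was not tested in some comparisons. None of these sign changes was in a called value, and apart from the smaller sets of libraries the cause was not tested.

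Of 27 correlations of same-numbered deviations, 2 were over 0.1, both for light in *fc2* (0.118 and 0.196). Such correlations cannot show whether samples of 1 number were grown or handled together. The replicate block called *ANAC072* in *fc2 pub4* against *fc2* in cycling light (-1.96, adjusted p = 0.000682) and in the interaction (-2.16, adjusted p = 0.0029) and changed no other call of the 7. Over all genes in 24 h light, for *fc2* against wt, *fc2 pub4* against wt and *fc2 pub4* against *fc2*, the calls were 62, 151 and 295 genes, against 44, 385 and 77 with the replicate block, 513, 882 and 1085 with DESeq2, 304, 481 and 483 with all 18 libraries and 203, 359 and 533 with no filter. The interaction of *fc2 pub4* and wt had 50 calls, against 415 with DESeq2 and 163 with no filter. Library size alone shifted the median log2FC of all genes by up to 0.23, in *fc2* against wt in cycling light, where 74.4% of the called genes were higher, against 50.8% with TMM. The share was likewise 68.9% against 44.1% for *fc2 pub4* against wt and 30.6% against 47.9% for *fc2 pub4* against *fc2* in cycling light, 80.6% against 53.6% and 75.9% against 60.3% for the same pairs in 24 h light, 62.0% against 51.6% for light in *fc2*, 34.8% against 51.6% in *fc2 pub4* and 34.8% against 54.4% in wt, and 72.9% against 48.9% and 24.5% against 49.9% for the interactions of *fc2* with wt and of *fc2 pub4* with *fc2*.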
